A study of Homo sapiens with 6 samples.

Results

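De novo fatty acid synthesis, the route from citrate cleavage and acetyl-CoA supply to the desaturation of the finished chain, was examined through 10 genes of the 23002 in the expression table. The 10 genes were chosen by their roles and matched by symbol, and all of them had a row. They were SREBF1 and MLXIPL (regulators), ACLY, ACSS2 and ME1 (supply of acetyl-CoA and reducing power), ACACA and ACACB (carboxylation), FASN (chain synthesis), ELOVL6 (elongation) and SCD (desaturation). RNA was sequenced from U251, an established human glioblastoma line, carrying either a control short hairpin RNA (sh-NC, labelled NC, 3 samples) or a short hairpin RNA against TRAF2 (sh-TRAF2, labelled KD, 3 samples). TRAF2 encodes an adaptor with a RING domain that relays signals from tumour necrosis factor receptors. Both hairpins were delivered by lentivirus, both lines were stable and puromycin-selected, and the labels name no added TNF-α. The labels describe the 3 samples of a group as biological replicates. They do not say whether these came from separately infected cultures, so the p-values measure the spread between these samples only. The comparison asks how the transcripts of this pathway differed once TRAF2 was knocked down.

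In this pathway, citrate exported from mitochondria is cleaved to acetyl-CoA, part of which is carboxylated to malonyl-CoA, and fatty acid synthase condenses these units with NADPH into palmitate. Palmitate is then lengthened to stearate and given a double bond to form monounsaturated fatty acids. SREBP-1, the product of SREBF1, and ChREBP, the product of MLXIPL, are the transcription factors best known for driving these genes, the former under insulin and growth factor signals and low sterol, the latter under glucose.

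The values were fragments per kilobase of transcript scaled to sequencing depth (FPKM), which can be compared between genes because they are scaled to length. Reads recovered from the FPKM values came to between 33999558 and 36823562 per sample on listed genes, and all 3 sh-TRAF2 samples lay below all 3 sh-NC samples in depth. The sh-TRAF2 samples were set against sh-NC by limma on log2(FPKM + 0.1). This covered 11870 genes whose FPKM averaged 0.5 or more, and a gene was called at a Benjamini-Hochberg adjusted p under 0.05. Fold changes are on that log2 scale, where the added 0.1 shrinks the differences of low genes. By this rule 44.6% of all tested genes were called, 23.7% higher and 20.9% lower in sh-TRAF2, so a call is common in these data. The median log2 fold change over all tested genes was 0.02. Of 7 markers of astroglial and glioma cells, VIM, CD44, SOX2 and NES were expressed, GFAP was low (0.334 to 1.62 FPKM), and S100B and OLIG2 were at or near 0. VIM was 1210 to 1280 FPKM in sh-NC and 1560 to 1610 in sh-TRAF2, and NES 4.82 to 5.88 and 11.4 to 11.8. The part of these marker differences in the results was not tested. PTPRC, PECAM1, EPCAM and RBFOX3, the defining markers of leukocytes, endothelium, epithelium and neurons, were at or near 0. CD68, also on the leukocyte list, was at 15.8 to 16.5 FPKM in sh-NC and 14.9 to 17.6 in sh-TRAF2.

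TRAF2 was read first as a check of the labels. Its FPKM was 15.1, 18.4 and 15.3 in sh-NC replicates 1, 2 and 3, and 3.26, 3.22 and 3.33 in sh-TRAF2 replicates 1, 2 and 3. All sh-TRAF2 samples lay far below all sh-NC samples, and the mean fell by 79.9% (log2 fold change -2.27, standard error 0.079, adjusted p = 1.16e-06 from limma). The study lists a pair of TRAF2 hairpins without naming which was sequenced, and their target sites, both in coding exons of TRAF2, are shown because they define the perturbation.
sh-TRAF2#1: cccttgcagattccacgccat
sh-TRAF2#2: ctggaccaagacaagattgaa
The first site is chr9:136916579-136916599 in exon 7 and the second is chr9:136920480-136920500 in exon 8 of a coding TRAF2 transcript of 11 exons (GRCh38, plus strand). Among GENCODE release 29 transcripts each exact 21-base site was found only in TRAF2, and in no transcript of FASN. Partial matches were not searched for, and effects of the hairpin other than on TRAF2 were not tested.

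Of the 10 genes, 7 were abundant enough to be tested. ACLY, FASN and SCD fell, ELOVL6 rose, and ACACA, ACSS2 and SREBF1 did not pass the test. The 3 that fell and the 1 that rose stand against the 20.9% and 23.7% of all tested genes called in each direction. None passed an absolute log2 fold change above 1, which with the adjusted p 1.72% of all tested genes did. SCD lay at that limit (-0.9992) and passed it under some alternatives, given with its values below. Their median log2 fold change was -0.09. ACACB, ME1 and MLXIPL were too low for the test. Since RNA came from whole cultures, fewer cells expressing a gene and less of its RNA per cell cannot be told apart.

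**Figure D1:**
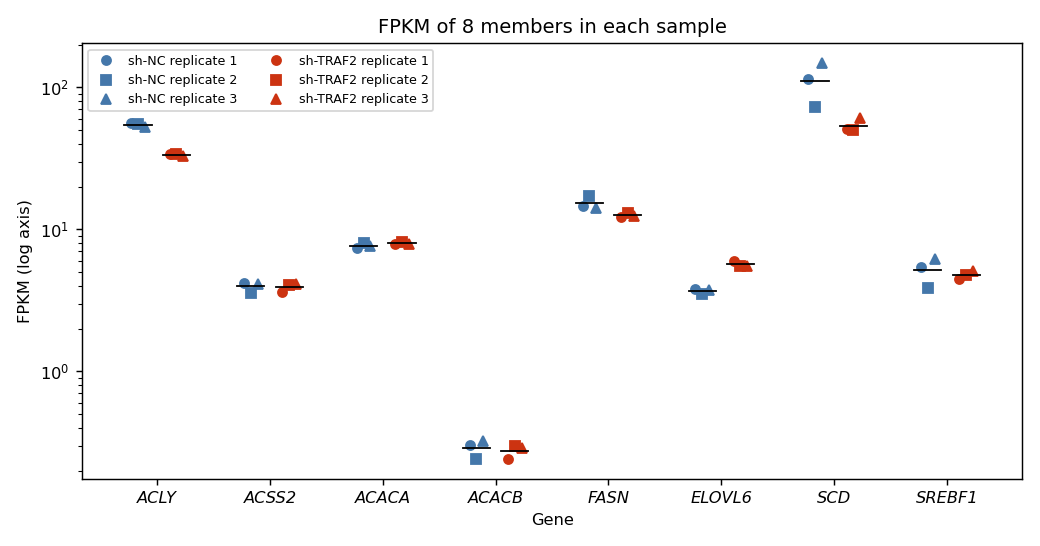
FPKM (log axis) of 8 genes of fatty acid synthesis in each of the 6 U251 samples, with sh-NC in blue, sh-TRAF2 in red, a symbol per replicate and a bar at each group mean. ME1 and MLXIPL, listed at or near 0, are left out. ACLY, FASN, SCD and ELOVL6 have groups that do not overlap, as do 55.5% of all tested genes. ACACA, ACSS2, ACACB and SREBF1 overlap.

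Among the regulators, SREBF1 did not differ beyond its spread. This gene encodes SREBP-1a and SREBP-1c (chromosome 17, 17810399 to 17837002, minus strand). Its FPKM was 5.44, 3.87 and 6.17 in sh-NC and 4.50, 4.74 and 5.05 in sh-TRAF2. All sh-TRAF2 values lay inside the range of the controls, in which replicate 2 was lowest. The log2 fold change was -0.09 (standard error 0.15, 95% confidence interval -0.43 to 0.25, adjusted p = 0.656 from limma), an interval that includes a fall larger than that of FASN. This value rested on sh-NC replicate 2, without which it was -0.28 and passed (adjusted p = 0.0306 from limma). Without sh-NC replicate 3 it was 0.05. SREBF1 shares 556 exonic bases with RAI1 on the opposite strand, which had a mean FPKM of 6.626, and the use of strand in counting is not given in the sources used here, so reads over those bases may belong to either gene.

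MLXIPL, encoding ChREBP (chromosome 7, 73593194 to 73624543, minus strand), was not detectable above the floor at this depth. It had 1 read in sh-NC replicate 1, 1 read in sh-TRAF2 replicate 3 and none in the other 4 samples. A count of 0 allows up to 3 reads, which for MLXIPL is 0.0198 to 0.0215 FPKM per library, counting error only. Its binding partner MLX, a member of a list of transcription partners described below, was by contrast present at 18.0 ± 2.39 FPKM (SD, n = 3) in sh-NC.

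The acetyl-CoA step showed a clear fall of ACLY and no detected change of ACSS2. ACLY, ATP citrate lyase, which splits cytosolic citrate into acetyl-CoA and oxaloacetate, lies on chromosome 17, 41866908 to 41930542, minus strand. Its FPKM was 56.0, 55.5 and 52.6 in sh-NC and 33.8, 34.1 and 32.7 in sh-TRAF2. The groups were tight and far apart, with coefficients of variation of 3.34% and 2.3%. The mean fell by 38.7%, from 54.7 ± 1.83 to 33.5 ± 0.77 FPKM (SD, n = 3 each). The log2 fold change was -0.71 (standard error 0.04, 95% confidence interval -0.80 to -0.61, adjusted p = 9.55e-06 from limma). Only 262 of the 11870 tested genes had a lower log2 fold change. On the reads, 8908 to 9082 per sh-NC sample and 5219 to 5354 per sh-TRAF2 sample, limma-voom also gave -0.71 (adjusted p = 4.6e-08). ACLY shares 156 exonic bases with AC125257.2, an antisense gene on the opposite strand that has no row in the expression data. As for SREBF1, reads over those bases may belong to either gene.

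ACSS2, which makes acetyl-CoA from acetate (chromosome 20, 34872146 to 34927962, plus strand), had an FPKM of 4.22, 3.56 and 4.12 in sh-NC and 3.64, 4.03 and 4.13 in sh-TRAF2. The groups overlapped almost fully. The log2 fold change was -0.01 (standard error 0.086, 95% confidence interval -0.21 to 0.19, adjusted p = 0.93 from limma), and its sign turned under quantile normalization and without sh-NC replicate 1, sh-NC replicate 3 or sh-TRAF2 replicate 1. ACLY and ACSS2, both of which supply cytosolic acetyl-CoA, thus had intervals that do not overlap, -0.80 to -0.61 against -0.21 to 0.19. ME1, cytosolic malic enzyme, a source of NADPH (chromosome 6, 83210389 to 83431071, minus strand), had 2, 0 and 0 reads in sh-NC and 2, 1 and 1 in sh-TRAF2. These lie under the 3-read floor, which for ME1 is 0.024 to 0.026 FPKM per library, so no fold is given.

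Among the carboxylase transcripts ACACA was the more abundant, and its level did not differ detectably. ACACA encodes acetyl-CoA carboxylase 1, the cytosolic enzyme that makes malonyl-CoA for synthesis (chromosome 17, 37084988 to 37406818, minus strand). Its FPKM was 7.40, 7.96 and 7.66 in sh-NC and 7.86, 8.12 and 7.90 in sh-TRAF2. The sh-TRAF2 values sat at the upper end of the control range and overlapped it. The log2 fold change was 0.05 (standard error 0.052, 95% confidence interval -0.06 to 0.17, adjusted p = 0.428 from limma). ACACB encodes acetyl-CoA carboxylase 2, the mitochondrial outer membrane form known for controlling fatty acid oxidation (chromosome 12, 109116595 to 109268226, plus strand). It was low, at 0.305, 0.242 and 0.323 FPKM in sh-NC and 0.243, 0.297 and 0.290 in sh-TRAF2, or 88 to 125 reads per sample. It fell under the filter of the main test, and limma-voom on its reads gave -0.06 (95% confidence interval -0.47 to 0.35, adjusted p = 0.813). ACACA exceeded ACACB in FPKM by 23.7 to 32.9 times in sh-NC and by 27.2 to 32.4 times in sh-TRAF2.

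FASN, fatty acid synthase, the multi-domain enzyme that builds palmitate, fell modestly (chromosome 17, 82078333 to 82098332, minus strand). Its FPKM was 14.7, 17.3 and 14.1 in sh-NC and 12.3, 13.1 and 12.4 in sh-TRAF2. The groups did not overlap, although the lowest control and the highest sh-TRAF2 sample lay close, and among all tested genes the groups of 55.5% did not overlap. The mean fell by 18.2%, from 15.4 ± 1.72 to 12.6 ± 0.472 FPKM (SD, n = 3 each), with a log2 fold change of -0.28 (standard error 0.077, 95% confidence interval -0.46 to -0.11, adjusted p = 0.0176 from limma). An exact two-sided permutation test gave p = 0.1, the smallest that 3 against 3 samples allow. FASN was thus not extreme among the genes measured, as 1837 tested genes had a lower log2 fold change. The call was near the threshold. Its adjusted p was 0.0521 without the filter on low values, and 0.0549 and 0.0534 without sh-TRAF2 replicate 1 or 3. On the reads, limma-voom gave -0.29 (adjusted p = 0.00437). The ratio of FASN to ACACA, in FPKM, was 1.84 to 2.18 in sh-NC and 1.56 to 1.62 in sh-TRAF2, without overlap.

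Past the synthase the 2 modifying steps moved in opposite directions. ELOVL6, the elongase that extends palmitate to stearate (chromosome 4, 110045846 to 110199199, minus strand), had an FPKM of 3.82, 3.51 and 3.73 in sh-NC and 5.97, 5.54 and 5.51 in sh-TRAF2. Every sh-TRAF2 sample exceeded every control. The mean rose by 53.9%, from 3.69 ± 0.159 to 5.67 ± 0.259 FPKM (SD, n = 3 each). The log2 fold change was 0.61 (standard error 0.065, 95% confidence interval 0.46 to 0.76, adjusted p = 0.000188 from limma). ELOVL6 was the 1 tested gene of the 10 that rose.

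SCD, stearoyl-CoA desaturase, which introduces the double bond that makes oleate (chromosome 10, 100347124 to 100364834, plus strand), was the most abundant of the 10 in every sample and had the largest fall among the 7 tested. Its FPKM was 114, 72.7 and 148 in sh-NC and 50.8, 49.8 and 60.5 in sh-TRAF2. The controls were scattered, with a coefficient of variation of 33.7% against 11% in sh-TRAF2, and replicate 2 lay nearest to the sh-TRAF2 samples. The mean fell by 51.8%, from 112 ± 37.6 to 53.7 ± 5.93 FPKM (SD, n = 3 each), with a log2 fold change of -1.0 (standard error 0.218, 95% confidence interval -1.50 to -0.50, adjusted p = 0.00657 from limma). The size depended on the controls, being -1.28 without sh-NC replicate 2 and -0.77 without sh-NC replicate 3. It passed an absolute value of 1 without sh-NC replicate 2, without sh-TRAF2 replicate 3 (-1.09), after rescaling to TPM (-1.014), under quantile normalization (-1.06), under limma-voom (-1.002) and, narrowly, with a pseudocount of 0.01. A lower log2 fold change was found for 91 tested genes.

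**Figure D2:**
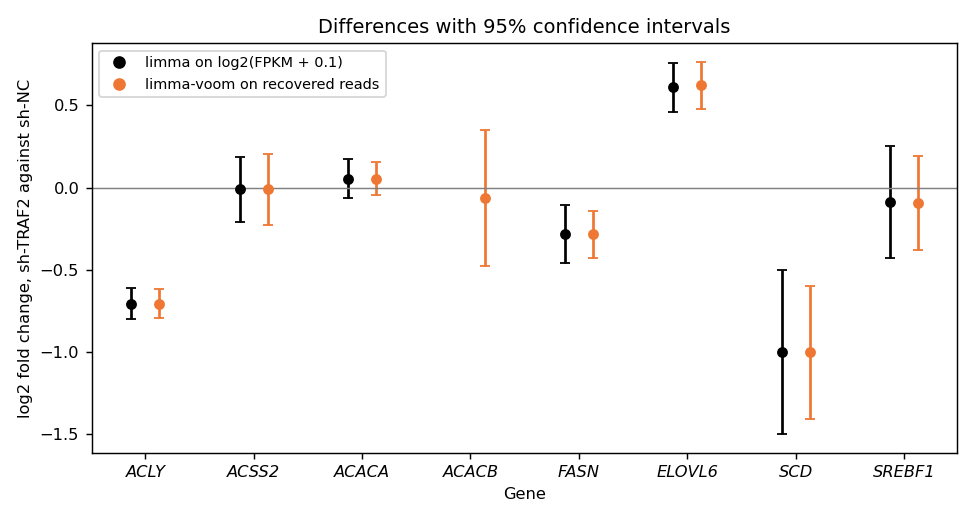
Log2 fold change of each gene, sh-TRAF2 against sh-NC, with its 95% confidence interval, from limma on log2(FPKM + 0.1) in black and from limma-voom on recovered reads in orange. ACLY, FASN and SCD lie below 0 and ELOVL6 above it on both scales, the interval of ACACB comes from limma-voom alone, and SCD and SREBF1 have the widest intervals of the 7 genes tested on FPKM.

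Sequence upstream of the genes was compared for shared promoter motifs. RefSeq promoters (GRCh38.p14), from 250 bases before to 50 after the start, were matched for 9 of the 10 genes, all but FASN. Those of ACLY and SCD, which fell, and of ELOVL6, which rose, are shown with CCAAT boxes (CCAAT) and GC boxes (GGGCGG) on either strand in capitals.
ACLY: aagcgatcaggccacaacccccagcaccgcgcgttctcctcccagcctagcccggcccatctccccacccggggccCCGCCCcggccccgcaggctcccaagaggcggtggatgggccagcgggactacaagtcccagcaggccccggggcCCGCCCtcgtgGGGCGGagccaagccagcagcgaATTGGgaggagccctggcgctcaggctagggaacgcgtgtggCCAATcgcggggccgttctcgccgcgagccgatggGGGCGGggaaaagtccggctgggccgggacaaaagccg
SCD: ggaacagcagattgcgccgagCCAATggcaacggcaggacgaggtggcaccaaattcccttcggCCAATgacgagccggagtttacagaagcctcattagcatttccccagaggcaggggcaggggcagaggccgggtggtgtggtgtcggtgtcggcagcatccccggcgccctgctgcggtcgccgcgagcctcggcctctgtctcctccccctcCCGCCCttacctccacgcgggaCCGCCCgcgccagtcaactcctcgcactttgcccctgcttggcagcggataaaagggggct
ELOVL6: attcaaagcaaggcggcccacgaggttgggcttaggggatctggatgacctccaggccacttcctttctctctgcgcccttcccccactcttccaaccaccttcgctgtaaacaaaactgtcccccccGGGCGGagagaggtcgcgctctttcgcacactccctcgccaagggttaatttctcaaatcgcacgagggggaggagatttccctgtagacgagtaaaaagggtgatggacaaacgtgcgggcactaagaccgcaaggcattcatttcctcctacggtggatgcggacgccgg
These are chr17:41918973-41919272 (ACLY, minus strand), chr10:100346983-100347282 (SCD, plus strand) and chr4:110198566-110198865 (ELOVL6, minus strand), each read 5′ to 3′ along its gene. The CCAAT box occurred at 2 places in ACLY, at 2 in SCD and at 1 in ACSS2, which was not called, and at none in the other 6, ELOVL6 among them, and 34.61% of the 35116 promoters in the table held one. GC boxes numbered 4 in ACLY, 2 in SCD and 1 in ELOVL6, and 0 to 6 in the others, and 44.95% of promoters held one. The sterol element TCACNCCAC, the E-box CACGTG and the LXR element (direct repeat type), found in 1.13%, 7.26% and 0.02% of promoters, were absent from all 9 windows. These are matches of letters in a short window and say nothing of binding.

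In sh-NC the order of mean FPKM was SCD, ACLY, FASN, ACACA, SREBF1, ACSS2, ELOVL6 and ACACB, with ME1 and MLXIPL under the floor. The ranges of SREBF1 and ACSS2 over the sh-NC samples overlapped, as did those of ACSS2 and ELOVL6. Within every sh-NC sample, however, SREBF1 stood above ACSS2 and ACSS2 above ELOVL6. In sh-TRAF2 the first 4 places were the same, but ELOVL6 stood above SREBF1 and ACSS2 in every sample. The summed FPKM of the 10 genes was 206.3, 164.7 and 236.4 in sh-NC and 119.1, 119.8 and 128.5 in sh-TRAF2. This sum was mostly SCD and ACLY, as SCD alone made up 44.1% to 62.5% of it in sh-NC and 41.6% to 47.1% in sh-TRAF2.

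The 7 tested genes varied in different ways from sample to sample. As a description over the 6 samples, which share the group difference, log2(FPKM + 0.1) of FASN correlated with ACLY at r = 0.86, with SCD at 0.43, with SREBF1 at -0.32 and with ELOVL6 at -0.88. SREBF1 followed SCD (r = 0.69) and ACSS2 (r = 0.84) more closely. Within sh-NC, replicate 2 was the sample with the highest FASN and the lowest SCD, SREBF1, ACSS2 and ELOVL6. It was lowest of the controls for 16 of 21 sterol SREBP target genes, against 36.3% of all tested genes. The part of this sample in the results was tested only by leaving it out. The 5 genes whose pattern was most like FASN were WDR81, ZNF331, SEC14L1, GPR157 and COL17A1, with Pearson's r of 0.9903 to 0.9978 over the 6 samples. They were picked as the highest of all tested genes, so values this high partly follow from the selection. COL17A1 was not called (log2 fold change -0.10, adjusted p = 0.129 from limma), whereas the rest were called lower.

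**Figure D3:**
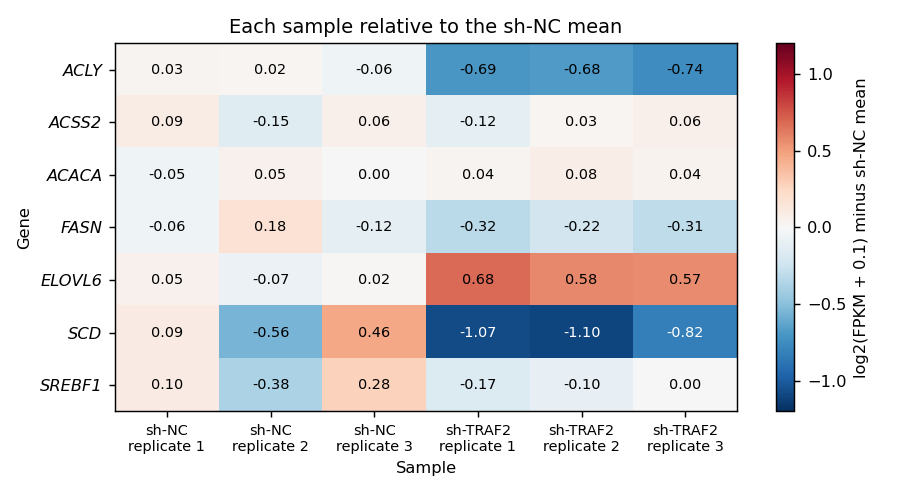
Log2(FPKM + 0.1) of the 7 tested genes in each sample minus the sh-NC mean, with red higher and blue lower. SCD and SREBF1 are lowest among the controls in sh-NC replicate 2 (-0.56 and -0.38), where FASN is highest (0.18), while ACLY is uniform within each group.

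Genes around the pathway were read from 10 lists. Of the acetyl-CoA and citrate supply list, 3 of 17 tested genes rose and 1 fell. MDH1, cytosolic malate dehydrogenase, rose from 67.0 ± 3.22 to 102 ± 3.18 FPKM (SD, n = 3 each, log2 fold change 0.61, adjusted p = 3.12e-05 from limma). PDHB, a subunit of pyruvate dehydrogenase, rose by 0.22 on the log2 scale (adjusted p = 0.00273 from limma). IDH1, which makes cytosolic NADPH, was the 1 that fell (log2 fold change -0.30, adjusted p = 0.016 from limma), and the citrate carrier SLC25A1, which feeds ACLY, had -0.07 (adjusted p = 0.404). The share called was 23.5%, below the 44.6% over all tested genes.

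NADPH supply had the highest share of calls of the 10 lists, with 6 of 9 tested genes lower and 2 higher (88.9%). IDH1 is on this list as well as on the acetyl-CoA and citrate supply list, and its fall is counted in both. PGD, which yields NADPH in the pentose phosphate pathway, fell by 74.7%, from 103 ± 1.65 to 26.1 ± 0.194 FPKM (SD, n = 3 each, log2 fold change -1.98, adjusted p = 3.09e-08 from limma). PGLS, the enzyme just before it, fell from 46.0 to 28.6 FPKM, and NNT, the mitochondrial transhydrogenase, from 13.4 to 10.1 (adjusted p = 0.000131 and 0.000222 from limma).

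Control of the carboxylase and of the synthase as proteins was read from a further pair of lists. Of 12 tested genes in control of acetyl-CoA carboxylase, 4 fell and none rose (33.3% called, median -0.05). They included CAMKK2 and STRADA, which act upstream of AMP-activated protein kinase, and HLCS, which attaches the biotin that carboxylases need, with log2 fold changes of -0.40, -0.35 and -0.45 (adjusted p = 0.000873, 0.00309 and 0.00349 from limma). For activation and turnover of the FASN protein, 2 of 8 tested genes fell and 1 rose (37.5%). COP1, a ubiquitin ligase, fell from 5.34 to 4.09 FPKM, HDAC3, a deacetylase, fell from 25.7 to 21.8, and PTPN11, a phosphatase, rose from 40.8 to 47.7 (adjusted p = 0.00165, 0.0027 and 0.00221 from limma). These are transcript levels, and protein was not measured here.

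The mitochondrial route of fatty acid synthesis, which makes the precursor of lipoic acid, had 3 of 9 tested genes lower and 2 higher (55.6%). LIPT2, OXSM and MCAT were the 3 lower, at -0.84, -0.35 and -0.32 on the log2 scale (adjusted p = 0.0051, 0.00712 and 0.0231 from limma), and LIPT2 rested on 27 to 64 reads per sample. This count was 2 without the filter, and 2 without sh-TRAF2 replicate 2 or 3. Elongation and desaturation partners had 8 of 16 lower and 5 higher (81.2%). HACD3, a dehydratase of the elongation cycle, rose with ELOVL6, from 14.8 ± 0.146 to 27.7 ± 0.147 FPKM (SD, n = 3 each, log2 fold change 0.90, adjusted p = 2.56e-06 from limma). ELOVL1, which elongates very long chains, fell from 122 to 85.9 FPKM, and CYB5R3, which passes electrons to desaturases, from 24.5 to 17.8 (adjusted p = 1.86e-05 and 0.000181 from limma). FADS2, a desaturase of polyunsaturated chains, was the 1 gene of this list past the fold threshold (log2 fold change -1.36, adjusted p = 0.000318 from limma).

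The lists for the regulators were mixed. In SREBP processing, 2 of 10 fell and 1 rose (30%). MBTPS2, a protease that releases SREBPs, rose from 4.92 to 6.98 FPKM, while UBE2G2, a ubiquitin-conjugating enzyme, fell from 21.8 to 16.9 and SREBF2, encoding SREBP-2, from 23.2 to 20.6 (adjusted p = 0.000995, 0.000447 and 0.0341 from limma). SCAP, the SREBP escort, and INSIG1, its anchor, had -0.10 and -0.26 (adjusted p = 0.144 and 0.175 from limma). Of 15 transcription partners, 7 fell and 3 rose (66.7%), among them MLX, which rose to 29.3 ± 1.95 FPKM (SD, n = 3, log2 fold change 0.70), NFYB, a subunit of the CCAAT-binding factor NF-Y (0.37), and SP1, which binds GC boxes (-0.32), with adjusted p = 0.000471, 0.00178 and 0.00188 from limma. The other NF-Y subunits, NFYA and NFYC, fell (log2 fold change -0.22 and -0.14, adjusted p = 0.0186 and 0.0338 from limma).

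Targets of the same factors were described for comparison. Of 21 tested sterol SREBP targets, 6 rose and 6 fell (57.1%, median -0.03). MVK, mevalonate kinase, rose by 0.66 on the log2 scale, while STARD4, a sterol carrier, had -1.43 (adjusted p = 0.000257 and 0.00039 from limma). Of 7 tested ChREBP and LXR targets, 4 fell and none rose (57.1%, median -0.32), although this count was 2 without sh-TRAF2 replicate 1. MYLIP, ABCA1 and LPCAT3, known LXR targets, had -0.60, -0.44 and -0.32 (adjusted p = 0.000967, 0.00185 and 0.0151 from limma). TXNIP, a known ChREBP target, had -0.15 (adjusted p = 0.228 from limma).

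**Figure D4:**
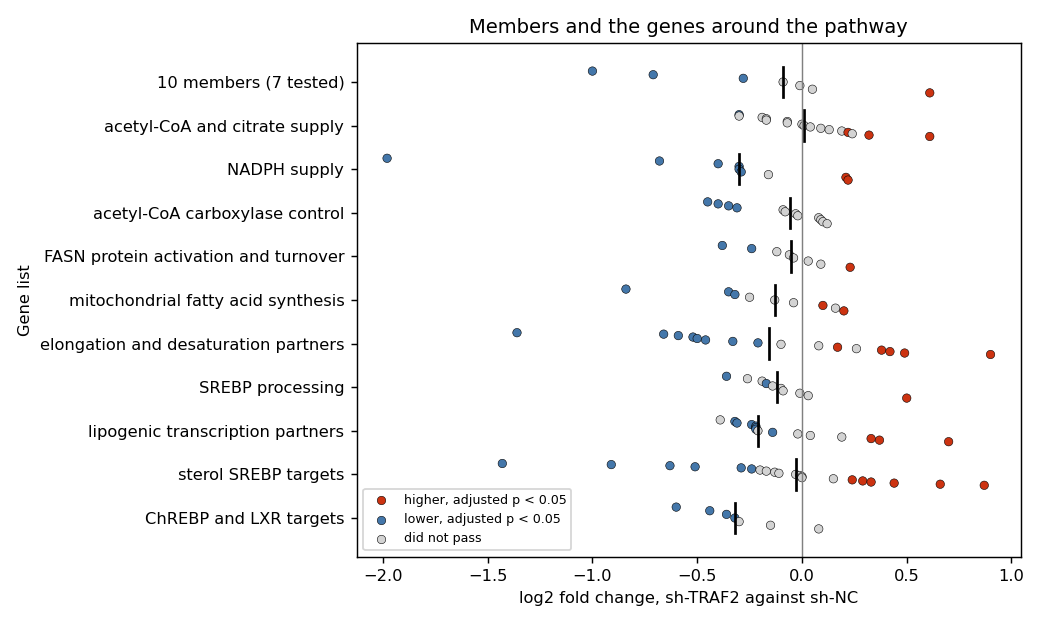
Log2 fold change, sh-TRAF2 against sh-NC, of each tested gene of fatty acid synthesis and of the 10 lists around it, with the list median as a black bar, genes called higher in red, called lower in blue and others in grey. PGD (-1.98), STARD4 (-1.43) and FADS2 (-1.36) lie farthest below 0, and HACD3 (0.90) farthest above it.

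The alternatives left the picture of the 7 tested genes in place except at FASN, ACSS2 and SREBF1. ACLY, SCD and ELOVL6 kept their direction and their call under all 15 alternatives tried, with ELOVL6 between 0.51 and 0.63 and ACLY between -0.74 and -0.69 on the log2 scale.

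**Figure D5:**
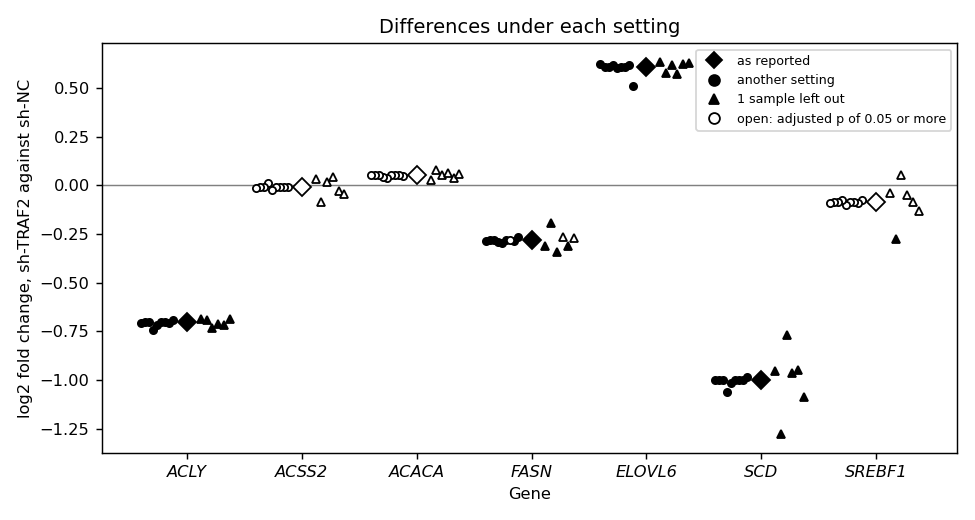
Log2 fold change of the 7 tested genes as reported (diamond), under 9 other settings (circles) and with each of the 6 samples left out (triangles), open where the adjusted p is 0.05 or more. ACLY, ELOVL6 and SCD are filled throughout, FASN is open under 3 alternatives, and SREBF1 is filled under 1, without sh-NC replicate 2.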

How the data were processed

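RNA-seq was compared between 3 sh-NC and 3 sh-TRAF2 samples of U251 cells, grouped by their labels. OE Biotech made, sequenced and processed the libraries, and the authors deposited FPKM per gene and sample. The submitters' processing notes name HISAT2, HTSeq, R 3.2.0 and DESeq2 without saying what each did. The genome build, annotation and use of strand are not given in the sources used here.

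FPKM was tested as log2(FPKM + 0.1) with limma 3.58.1 in R 4.3.3 (lmFit, eBayes with trend, two-sided, Benjamini-Hochberg) over 11870 genes averaging 0.5 or more. FPKM steps gave whole reads: of the 16073 genes above 0 in all samples, 99.1% had a whole implied exonic length (tolerance 0.01). For the 2643 genes with reads in 1 sample the lowest number was used. On simulated data 96.1% of 1699 genes were recovered exactly. The limma-voom alternative used 14130 genes averaging 10 reads or more and called 5759 (40.8%). In a simulation of sh-TRAF2 against sh-NC over 11870 genes, 100 genes were changed by 0.5 on the log2 scale and 100 by 1. Of these, 82% and 100% were called, with 16 unchanged genes called. The simulation gave every gene the same spread beyond counting and changed no other genes, whereas 44.6% of tested genes were called in the data. These rates are therefore not the power of this comparison. Replicates differed by more than counting noise (chi-square per gene 5.01 to 12.2), so all counted separately.

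The 10 genes and the lists were chosen with earlier results of these data known. Named were the 10 genes, TRAF2, the 3 genes of each list with the smallest adjusted p, and the 5 most correlated with FASN. Some genes that this rule selects are not reported here. Among other list genes, IDH1, SLC25A1, SCAP, INSIG1, NFYA, NFYC, FADS2 and TXNIP were named after their values were seen, as was RAI1 for its overlap. AC125257.2 was named for its overlap with ACLY. ALDH1L1 and THRSP, of the lists, were not analysed here. Gene positions are from GENCODE release 29, not necessarily the build behind the counts. Python 3.11.15 with numpy 2.4.6, pandas 2.3.3 and matplotlib 3.10.9 was used. The alternatives were pseudocounts of 1 and 0.01, no filter, a minimum mean FPKM of 1, rescaling to TPM, quantile normalization, a replicate block, eBayes without trend, limma-voom, and each sample left out.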

Additional observations from a re-analysis of the deposited data

How the results depend on the processing

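FASN lost its call without the filter on low values (-0.28, adjusted p = 0.0521 from limma), where 23002 genes entered the adjustment, and its value ran from -0.34 to -0.20 with 1 sample left out. ACSS2, from -0.08 to 0.04 with 1 sample left out, turned to 0.01 under quantile normalization and to 0.03, 0.02 and 0.04 without sh-NC replicate 1, sh-NC replicate 3 or sh-TRAF2 replicate 1. SREBF1 was -0.28 without sh-NC replicate 2 and 0.05 without sh-NC replicate 3; the cause was not tested. The acetyl-CoA and citrate supply list had 7 calls under limma-voom, against 4. The mitochondrial list, with 5 calls, had 2 without the filter, 3 after rescaling to TPM, 3 without the trend, and 2 to 4 with 1 sample left out, and the ChREBP and LXR list, with 4, had 2 to 4. Leaving out 1 sample gave 2 to 4 of the 10 genes called lower and 1 to 1 called higher. Of the values for single genes, those of TRAF2 included, 111 kept direction and call under an alternative. Of the rest, 5 changed sign, 3 lost the call and 1 gained it. Of the counts, 171 stayed within 1.5 times and 9 did not.

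Whether the replicate numbers pair the samples could not be decided from the values. Deviations of same-numbered samples correlated at -0.081, 0.072 and 0.073, and 2 of the 3 sh-NC samples correlated best with their own number. With the replicate block, 2912 genes were called higher and 2539 lower, against 2818 and 2479. FASN was then -0.28 (adjusted p = 0.00743 from limma), SCD -1.0 (adjusted p = 0.00184), ACLY -0.71 (adjusted p = 7.54e-05) and ELOVL6 0.61 (adjusted p = 0.000625). The block changed no call among the 7 tested genes. It lowered the standard error of SCD from 0.218 to 0.133, of FASN from 0.0771 to 0.0547 and of SREBF1 from 0.15 to 0.119. That of ACSS2 rose from 0.0857 to 0.0869.

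With 3 samples a group, a fold change near that of FASN sat at the edge of what was called. ME1, MLXIPL and ACACB were all left out of the main test by the filter on FPKM. ME1 had 0 to 2 reads per sample and MLXIPL 0 to 1, whereas ACACB had 88 to 125.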
